A study of Mus musculus with 4 samples.

Results

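A set of 2200 open chromatin regions of mouse macrophages was called in 3 of 4 ATAC-seq libraries and was absent from a single one, esculetin replicate 1. The members were found by merging the peaks of the 4 libraries on chromosomes 1 to 19 and X, where an overlap of at least 1 bp joined peaks. They were chosen by their peak calls: regions with a peak in both DMSO libraries and in esculetin replicate 2, but with none in esculetin replicate 1, were kept. These were 2200 of 35988 merged regions, or 6.11%, and they measure how far the calls depend on that library. The rule used the peak calls, so the presence pattern and the strength of the members in the 3 lists are given as a description, without a test.

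The libraries came from RAW264.7, a wild-type mouse macrophage line, assayed by ATAC-seq, in which the Tn5 transposase cuts accessible DNA. In all 4 libraries the cells had received 25 ug/mL DIL-oxLDL, oxidized low-density lipoprotein that carries a dye. The control group had DMSO (n = 2) and the treated group had 40 ug/mL esculetin, a plant coumarin (n = 2), for 24 h. The labels do not say whether the 2 libraries of a group came from separate cultures, and with 2 against 2 an exact two-sided permutation test cannot give a p below 0.33.

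The lists of the 4 libraries differed in length before any rule was applied. On the chromosomes used the DMSO lists held 19453 peaks (replicate 1) and 27698 peaks (replicate 2), and the esculetin lists held 8559 (replicate 1) and 12660 (replicate 2). The coverage of the genomic background, a measure of depth solved from the peak statistics, ranged from 4.08 to 6.51 reads. Esculetin replicate 1 was the second deepest at 4.97 and had the shortest list. The library name written inside its peak names was E2, and that of esculetin replicate 2 was E3, whereas the DMSO lists carried C1 and C2. The libraries are named here as the sample records name them. Of 12 macrophage markers, 5 and 6 had a promoter peak in the DMSO libraries, 1 in esculetin replicate 1 and 3 in esculetin replicate 2, and 16 markers of other cell types had none in any library. The single marker called in all 4 libraries was Spi1, which encodes the macrophage lineage factor PU.1, while Adgre1, Csf1r and Itgam had no promoter peak in any.

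Accessible promoters are stretches upstream of and over the transcription start site (TSS) that are depleted of nucleosomes and bound by general and sequence-specific factors. Promoters with many CpG dinucleotides are open in most cell types. Enhancers lie inside genes or between them, differ more between cell types and are bound in macrophages by factors such as PU.1, C/EBP and AP-1. The CCAAT box is bound by NF-Y. The GC box, written GGGCGG, is bound by proteins of the SP family, and the ETS motif CCGGAAG by ETS factors.

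Promoter sequences of 6 members are shown, chosen as 3 of the strongest regions and as 3 genes with macrophage functions. They are from RefSeq (GRCm38.p6, the assembly behind mm10) and cover the 250 bases before the TSS, 5′ to 3′ on the strand of the gene. Capitals mark the CCAAT box, the GC box and the ETS motif, each on either strand.
Aldh4a1, chr4:139622644-139622893, plus strand: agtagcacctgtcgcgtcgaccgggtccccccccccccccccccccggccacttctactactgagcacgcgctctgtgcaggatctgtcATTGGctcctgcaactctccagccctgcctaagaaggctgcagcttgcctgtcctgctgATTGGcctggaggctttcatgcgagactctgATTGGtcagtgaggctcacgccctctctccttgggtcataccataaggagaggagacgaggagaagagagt
Ccpg1, chr9:72985254-72985503, plus strand: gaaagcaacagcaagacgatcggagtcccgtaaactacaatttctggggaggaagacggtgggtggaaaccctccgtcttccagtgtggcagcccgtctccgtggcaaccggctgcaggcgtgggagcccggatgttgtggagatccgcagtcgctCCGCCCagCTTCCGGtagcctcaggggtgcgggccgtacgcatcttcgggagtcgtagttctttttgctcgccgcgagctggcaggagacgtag
Zfp691, chr4:119174196-119174445, minus strand: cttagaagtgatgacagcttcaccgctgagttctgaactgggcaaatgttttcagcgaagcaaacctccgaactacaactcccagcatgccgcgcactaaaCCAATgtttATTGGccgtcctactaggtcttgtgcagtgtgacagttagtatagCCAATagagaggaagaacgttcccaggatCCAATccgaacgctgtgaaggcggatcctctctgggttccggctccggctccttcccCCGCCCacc
Cd68, chr11:69666171-69666420, minus strand: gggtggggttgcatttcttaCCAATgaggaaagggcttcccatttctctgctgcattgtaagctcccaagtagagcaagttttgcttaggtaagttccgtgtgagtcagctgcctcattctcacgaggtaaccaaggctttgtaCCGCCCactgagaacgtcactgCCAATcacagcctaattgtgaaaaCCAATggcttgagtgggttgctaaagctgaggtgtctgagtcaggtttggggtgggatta
Irf8, chr8:120736108-120736357, plus strand: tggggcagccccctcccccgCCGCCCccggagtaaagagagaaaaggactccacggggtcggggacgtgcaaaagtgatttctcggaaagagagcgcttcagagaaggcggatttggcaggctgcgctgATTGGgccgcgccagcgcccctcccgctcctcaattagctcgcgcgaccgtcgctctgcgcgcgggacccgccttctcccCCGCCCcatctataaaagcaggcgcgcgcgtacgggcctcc
Syk, chr13:52583187-52583436, plus strand: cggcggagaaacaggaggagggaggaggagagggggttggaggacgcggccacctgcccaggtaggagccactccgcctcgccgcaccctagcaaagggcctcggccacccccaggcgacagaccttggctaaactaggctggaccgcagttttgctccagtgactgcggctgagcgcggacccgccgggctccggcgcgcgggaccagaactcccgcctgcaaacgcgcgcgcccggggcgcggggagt
The stretch of Aldh4a1 held 3 CCAAT boxes and no GC box. That of Zfp691 held 4 CCAAT boxes and 1 GC box, and that of Cd68 had 3 and 1. The Ccpg1 promoter had 1 GC box next to 1 ETS motif. Irf8 had 1 CCAAT box and 2 GC boxes. The Syk promoter, with a GC content of 71.6%, had none of the 3 motifs.

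The pattern was first set beside the other patterns over 4 libraries. Of the 35988 regions, 6174 were called in all 4 libraries and 4991 in both DMSO libraries only. Regions that missed a single library numbered 3080, and 71.4% of them missed esculetin replicate 1. Another 402 missed only esculetin replicate 2, 252 only DMSO replicate 2 and 226 only DMSO replicate 1. Esculetin replicate 1 lacked 26.3% of the 8374 regions called in the other 3 libraries (95% Clopper-Pearson interval 25.3 to 27.2, for counting error only). This share was 52.3% without esculetin replicate 2 in the rule and 10.3% with each list cut to 8559 peaks. The order of the libraries changed when the lists were cut to their 8559 strongest peaks. Then 375 regions missed only esculetin replicate 1, or 16.7% of 2245, and 1493 missed only DMSO replicate 2. The list of esculetin replicate 1 was itself uncut at this length, so the 375 are largely a subset of the 2200 by construction.

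The members also set how the control and treated lists compared. Of 13767 regions shared by both DMSO libraries, 47.8% had a peak in esculetin replicate 1 and 60.8% in esculetin replicate 2. Among the 7191 shared DMSO regions that esculetin replicate 1 lacked, 2200 (30.6%) were open in the other esculetin library. In the other direction, 402 of the 5393 (7.45%) that esculetin replicate 2 lacked were open in esculetin replicate 1. Of the 5576 regions called in esculetin replicate 2 but not in replicate 1, 39.5% were in both DMSO libraries, whereas this was 88.8% of the 6949 regions called in both esculetin libraries.

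The strength of the members was described by the percentile of each peak's −log10 p within its own list, in which 100 is the strongest peak. The members had a median percentile of 58.8 in DMSO replicate 1 (quartiles 39.0 and 75.5), 54.6 in DMSO replicate 2 (35 and 70.7) and 39.1 in esculetin replicate 2 (24.0 and 54.6). Regions called in all 4 libraries had medians of 79.3, 73.7 and 74.0 in the same lists and 62.0 in esculetin replicate 1. Because the lists differ in length, a percentile is a rank within its list and does not compare signal between libraries. By rank, the members lay in the middle of the DMSO lists and in the lower part of the list of esculetin replicate 2. In that list, 713 members (32.4%) were above the median peak, 89 were above percentile 75 and 2 above percentile 90. At the other end, 158 were in its weakest 10%. There were 406 members (18.5%) above percentile 50 in all 3 lists and 26 above percentile 75 in all 3.

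The share of regions that esculetin replicate 1 lacked fell with the rank of the region. It was 69.0% in the weakest 10% of the list of esculetin replicate 2, 44.2% at percentiles 40 to 50, 10.8% at 70 to 80 and 0.16% in the strongest 10%. Ranked in DMSO replicate 1 the share went from 55.1% to 7.02%, and in DMSO replicate 2 from 52.3% to 4.35%. Of the 4392 regions above percentile 50 in all 3 lists, 90.8% were called in esculetin replicate 1, and of the 1872 above percentile 75, 98.6% were.

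**Figure D1:**
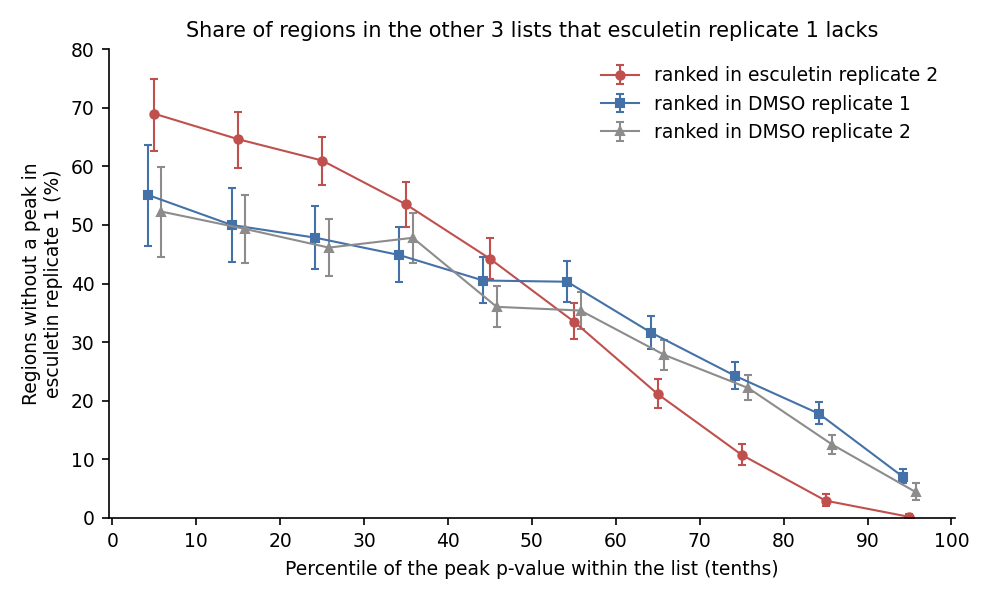
The share (%) of the 8374 regions called in both DMSO libraries and esculetin replicate 2 that had no peak in esculetin replicate 1, by steps of 10 in the percentile of peak −log10 p in each of the 3 lists. Bars are 95% Clopper-Pearson intervals, and the share drops from 69.0% to 0.16% along the list of esculetin replicate 2.

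Summit coverage over the library's background gave a scale that takes depth into account. The members had a median summit of 5.53 times background in DMSO replicate 1, 7.35 in DMSO replicate 2 and 6.10 in esculetin replicate 2. For regions called in all 4 libraries the medians were 7.07, 9.56 and 9.76, and 7.25 in esculetin replicate 1. In those regions the summit of esculetin replicate 1 was lower than that of esculetin replicate 2 in 84.6% (5218), with a median ratio of 0.789. The ratio of DMSO replicate 1 to esculetin replicate 2 was 0.723 in those regions and 0.916 in the members, and the ratio of DMSO replicate 2 was 1.0 and 1.21. In esculetin replicate 1, the lowest summit called at the level of background was 3.02 times background. The lists hold no coverage of esculetin replicate 1 at these regions, so how far it lay below its limit there was not tested.

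**Figure D2:**
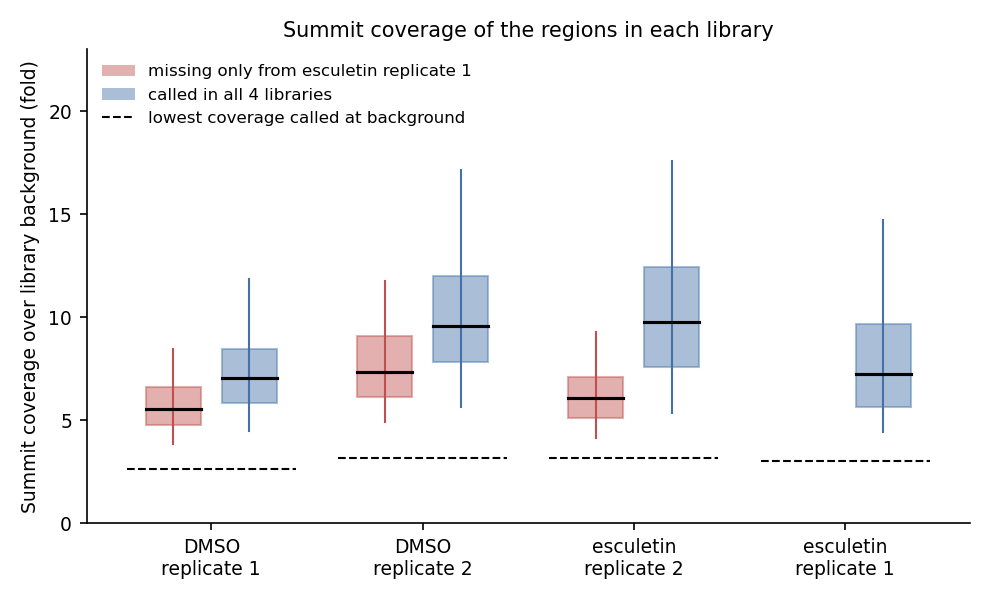
Summit coverage over library background (fold) of the 2200 members and of the regions called in all 4 libraries, in each library. Boxes span the quartiles with the median as a line, whiskers run from the 5th to the 95th percentile, and dashed lines give the lowest summit called at background (2.61, 3.19, 3.17 and 3.02 from left to right). Members have no peak in esculetin replicate 1.

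At the edge of the rule, calls turned on small values. The region called in all 4 libraries with the lowest −log10 q in esculetin replicate 1 (1.41) was at the promoter of Zfp644, a zinc finger gene, with percentiles of 59.6 and 71.5 in the DMSO lists and 71.2 in esculetin replicate 2. It lay at percentile 0.035 in esculetin replicate 1. The next were inside Galnt7, which encodes a glycosyltransferase of mucin-type O-glycosylation, and at the promoter of Rasal2, a Ras GTPase-activating protein, with −log10 q of 1.85 and 1.87. Rasal2 was at percentiles 89.1 and 89.4 in the DMSO lists and 56.2 in esculetin replicate 2. Among the members, the weakest in esculetin replicate 2 was a region of 1430 bp near the TSS of Pcbp1, which encodes a poly(rC)-binding protein, with a −log10 q of 1.38. It was at percentile 99.2 in DMSO replicate 2 and 43.8 in DMSO replicate 1, and a peak of esculetin replicate 1 lay 51 bp away. The next were a region 20211 bp from the TSS of Sval2, at percentiles 4.83 and 20 in the DMSO lists, and a region inside Ctsb, the gene of the lysosomal protease cathepsin B, at 49.1 and 69.9. Their −log10 q in esculetin replicate 2 was 1.63 and 1.80, and the nearest peak of esculetin replicate 1 was 281562 and 6193 bp away. Over all members, a peak of esculetin replicate 1 lay within 500 bp of 48 (2.18%) and within 2000 bp of 110 (5%). The median distance was 41139 bp.

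Location was not used by the rule and was compared with counting intervals, in which regions are the units and not replicates of a condition. The centre of 1326 members was at most 1 kb from a TSS, a share of 60.3% (58.2 to 62.3). In regions called in all 4 libraries this was 82.7%, a difference of −22.4 percentage points (95% Newcombe interval −24.7 to −20.2, for counting error only). Without esculetin replicate 2 in the rule, the promoter share was 37.0% and the difference −43.8 points, and with lists of equal length they were 74.7% and −11.4. In regions called in both DMSO libraries only it was 26.5%, 33.8 points below the members (31.4 to 36.1). The members therefore fell between both classes. Those that missed only DMSO replicate 2 had 59.5%, and the difference of 0.75 points had an interval from −5.48 to 7.23. Those that missed only esculetin replicate 2 had 52.7% (members higher by 7.54 points, 2.28 to 12.8), and those that missed only DMSO replicate 1 had 70.4% (members lower, −10.1, −16.0 to −3.51).

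Strength and location moved together, so the promoter share was also compared within ranks. At percentiles 30 to 70 of esculetin replicate 2, a range chosen after the data were seen, 64.9% of 1273 members and 80.7% of 2260 regions called in all 4 libraries were at a TSS, a difference of −15.8 points (−18.9 to −12.7). By 10% steps of that list, the interval of the difference lay below 0 from percentiles 10 to 70 and 80 to 90. It included 0 at percentiles 0 to 10 (−4.99, −18.6 to 8.72), at 70 to 80 (−0.55, −7.78 to 4.67) and in the strongest step, which held 2 members. Seen from the locations, esculetin replicate 1 lacked 20.6% of the 6430 promoter regions of the other 3 libraries, 47.4% of 926 regions inside protein-coding genes, 42.4% of 191 inside other genes and 42.8% of 827 between genes. It lacked 13.7% of 824 regions with coding TSSs on both strands within 1 kb of the centre, whatever their order. By chromosome the lacking share ran from 22.1% on chromosome 7 to 35.8% on X (54 of 151, interval 28.1 to 44.0).

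Among the members, 760 centres were within 100 bp of a TSS and 387 between 100 and 250 bp. Another 311 were 2 to 10 kb from the nearest TSS, 422 were 10 to 50 kb away and 73 were farther. There were 439 members (20%) inside a protein-coding gene without a TSS in 1 kb, against 7.89% of regions called in all 4 libraries (12.1 points more, 10.3 to 13.9). A further 354 were between genes and 81 inside other genes. The distal members had a median percentile of 32.9 in esculetin replicate 2 and the promoter members 43.4. Coding TSSs on both strands lay within 1 kb of the centre of 113 members (5.14%) and of 11.5% of the regions called in all 4 libraries (−6.38 points, −7.56 to −5.11). Members had a median width of 480 bp (216 to 1540) against 677 bp, and 2086 (94.8%) consisted of 1 peak in each of the 3 lists. Pseudogenes held 0.545% of members, 0.632% of regions called in all 4 libraries and 4.33% of those called in both DMSO libraries only.

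**Figure D3:**
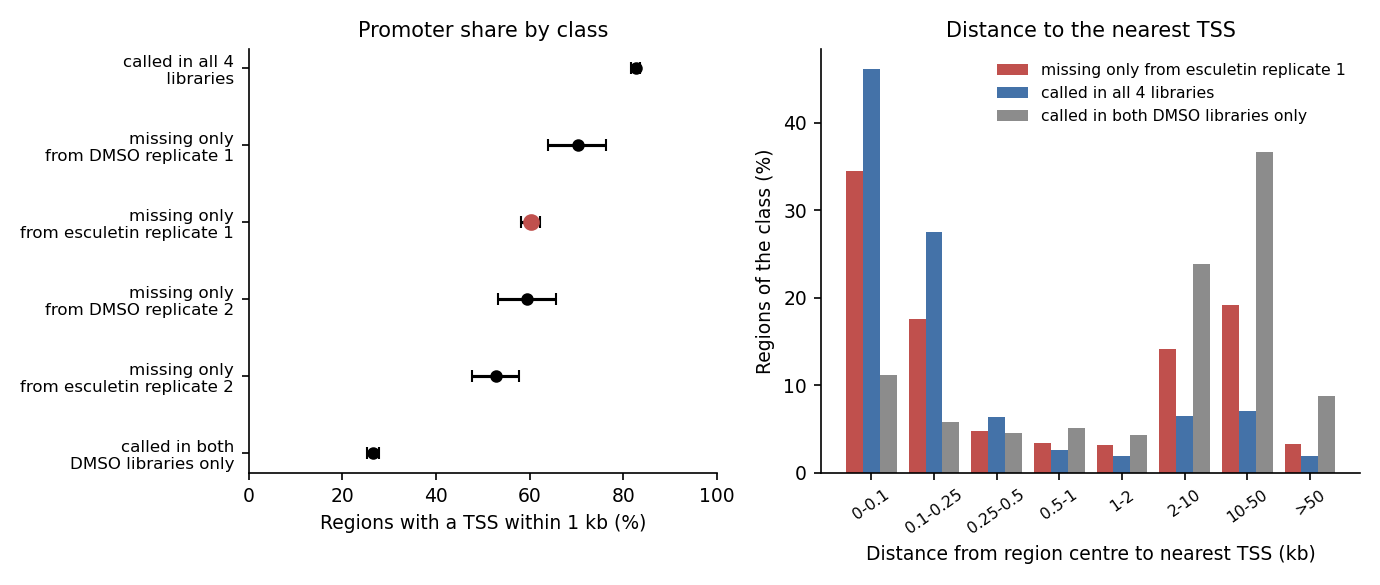
Left, share (%) of regions whose centre is at most 1 kb from a TSS in 6 classes, with 95% Clopper-Pearson intervals, in which the members (red, 60.3%) lie between regions called in all 4 libraries (82.7%) and regions called in both DMSO libraries only (26.5%). Right, share (%) of the members, of regions called in all 4 libraries and of regions called in both DMSO libraries only by distance of the centre to the nearest TSS (kb).

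Promoter sequence was compared over 957 member promoters found in the RefSeq table, 4074 promoters of regions called in all 4 libraries and all 21045 protein-coding promoters of that table, in windows of 300 bases from 250 before to 50 after the TSS. The GC content had a median of 59.7% in the members, 64.0% in regions called in all 4 libraries and 56.7% over all promoters, and the observed over expected CpG ratio was 0.778, 0.844 and 0.574. On either strand, the GC box was found in 63.2%, 78.9% and 46.7%. The members thus had it less often than regions called in all 4 libraries by 15.7 points (−15.7, −19.0 to −12.4), and at percentiles 30 to 70 of esculetin replicate 2 the difference was −8.84 points (−13.3 to −4.47). A lower share was not particular to the members. The GC box was in 64.8% of promoters of regions missing only esculetin replicate 2 and in 52.3% of those called in both DMSO libraries only. The CCAAT box was found in 35.7%, 46.7% and 38.5%, which made a difference of −11.0 points (−14.3 to −7.53) that was −0.71 (−5.24 to 3.93) at percentiles 30 to 70. The ETS motif was in 25.7%, 22.9% and 11.7%, a difference of 2.85 points (−0.12 to 5.98), or 4.35 (0.28 to 8.59) at percentiles 30 to 70. The palindrome bound by NRF1 was in 1.78%, 3.36% and 1.34% (−1.59 points, −2.48 to −0.42). The CRE palindrome TGACGTCA, bound by CREB and ATF factors, was in 3.03% of members (−1.51 points, −2.65 to −0.091), and its interval included 0 at percentiles 30 to 70 (−1.88, −3.62 to 0.15). The intervals of the other 4 motifs included 0 over all regions. These were the TATA box TATAAA in 5.85% of members, the C/EBP motif TTGCNNAA in 8.67%, the PU.1 motif GAGGAAGT in 3.24% and the AP-1 motif TGANTCA in 4.49%. At percentiles 30 to 70 the difference was 2.87 points (0.37 to 5.69) for the C/EBP motif and 2.10 points (0.35 to 4.23) for the AP-1 motif. Over all promoters the shares were 10.3% for the C/EBP motif and 7.04% for the AP-1 motif. Both were above the members, which had 9.27% and 4.80% at percentiles 30 to 70. Each motif was searched by its letters on both strands, and the PU.1 and ETS motifs have 5 letters in common. A match is a description of the letters and not a bound site.

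The strongest members, ranked by their lowest percentile over the 3 lists, were all at protein-coding promoters. The region chr4:139622387-139623312 (mm10) covered the TSS of Aldh4a1, a mitochondrial enzyme of proline breakdown, with percentiles of 93.5, 91.8 and 90.3 in DMSO replicates 1 and 2 and esculetin replicate 2. Its summit was 8.30, 12.3 and 12.4 times background in the same order. At chr15:103453532-103454039 the TSS of Nckap1l, which encodes the blood cell subunit of the WAVE complex that drives actin branching, had percentiles of 99.1, 93.9 and 89.7, and a summit of 10.6, 14.2 and 11.0 times background. The region chr9:72985200-72985861 at Ccpg1, a receptor for autophagy of the endoplasmic reticulum, had percentiles of 91.2, 85.4 and 95.9 and summits of 7.84, 11.5 and 14.4 times background. These 3 regions were high in all 3 libraries that called them, and the nearest peak of esculetin replicate 1 was 47503, 113318 and 452971 bp away.

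The next in rank were Zfp691, a zinc finger gene, with percentiles of 95.1, 85.0 and 87.2, and Immp1l, which encodes a peptidase of the inner mitochondrial membrane, with 92.8, 89.1 and 84.5. Il1rap, the accessory subunit of the interleukin-1 receptor, had percentiles of 87.8, 80.6 and 80.5. The zinc finger gene Zfp950, Cep97 of the centriole cap, Ptcd2 of mitochondrial RNA processing, 2610008E11Rik, Calr3 of the endoplasmic reticulum and Meak7, a lysosomal protein tied to mTOR signaling, completed the 12, with lowest percentiles of 80.5, 80.2, 80.2, 79.4, 79.2 and 79.0. The distance of the 12 centres from the TSS was 3 to 128 bp. The Ptcd2 region, chr13:99344505-99344954, also covered the TSS of Mrps27, a subunit of the mitochondrial ribosome.

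**Figure D4:**
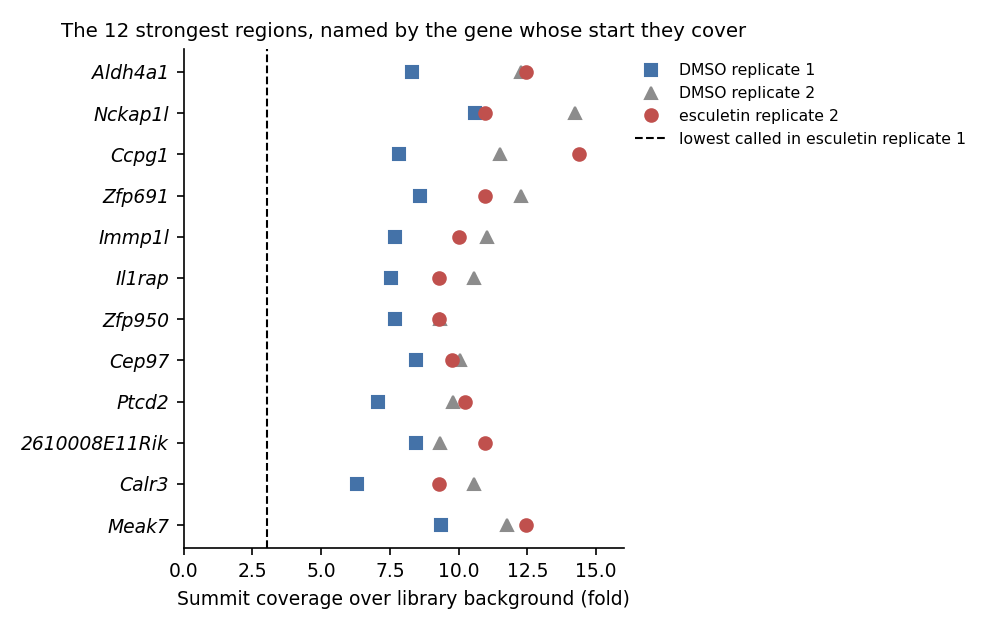
Summit coverage over library background (fold) of the 12 strongest members in DMSO replicates 1 and 2 and esculetin replicate 2. The dashed line is the lowest summit called at background in esculetin replicate 1 (3.02), which had no peak in any of these regions. The regions were picked for their strength in these 3 lists, so their place to the right of the line is a description.

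The strongest members away from a TSS, a group chosen after the values were seen, were weaker. The first was inside Cubn, which encodes the endocytic receptor cubilin, at chr2:13413505-13413973, with percentiles of 89.4, 80.1 and 74.7. The next lay 13014 bp from the TSS of Actb, the gene of beta-actin, with percentiles of 91.6, 85.9 and 74.6. A region inside Tnfrsf1b, the gene of TNF receptor 2, had 84.4, 84.6 and 70.4, and a region inside Entpd1, the gene of the ATP-hydrolyzing surface enzyme CD39, had 92.0, 85.2 and 66.1. The other 4 of the first 8 were inside Zswim6 and the noncoding Gm30881, and nearest to the noncoding Gm33669 and Gm16998.

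At the level of genes, promoter peaks in every library except esculetin replicate 1 were found for 1312 of 21214 protein-coding genes (6.18%). They were 18.8% of the 6982 genes with a promoter peak in the other 3 libraries. Of these 1312 genes, 1267 had a member region at the TSS. There were 5670 genes with a promoter peak in all 4 libraries, 787 in both DMSO libraries only and 167 that missed only esculetin replicate 2. Another 72 genes had a member region and, at another region of the same promoter window, a peak in esculetin replicate 1. With lists of equal length, the 1312 genes became 282, and without esculetin replicate 2 in the rule they became 2099.

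The gene lists below are read against the 18.8%, and each is given as genes without a promoter peak in esculetin replicate 1 out of genes with one in the other 3 libraries. Whether a share differs from 18.8% at matched promoter strength was not tested, so none is called particular to its list.

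Genes of lipid and cholesterol handling lacked the peak in 5 of 29 (17.2%). Slc27a4, a fatty acid transport protein, had percentiles of 73.2, 68.8 and 70.5 in DMSO replicates 1 and 2 and esculetin replicate 2, in the region chr2:29802461-29802814. Cd68, an endosomal glycoprotein that binds oxidized LDL, had 60.8, 44.2 and 53.9, with summits of 7.68, 10.5 and 9.27 times background. Fabp5, a fatty acid binding protein, had 59.7, 73.0 and 36.3. For Nr1h2, the gene of LXR beta, and Plin2, which coats lipid droplets, the gene-level pattern came from peaks in more than 1 region, none of which was a member. Of the loci tied to oxLDL uptake in the study's question, the promoter of Cebpb, the gene of C/EBPβ, had no member and a peak in DMSO replicate 2 and both esculetin libraries. Cd36, the scavenger receptor for oxidized LDL, had no region that was a member. Its only region called in all 4 libraries lay inside a protein-coding gene, 44208 bp from the TSS used for Cd36. Nceh1, a cholesterol ester hydrolase, had a member inside the gene 26834 bp from the TSS, with percentiles of 83.8, 69.4 and 24.4, and a promoter region called in all 4 libraries.

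Genes of phagocytosis and the cytoskeleton lacked it in 6 of 21 (28.6%, 11.3 to 52.2). These included small GTPases that drive engulfment. Cdc42 had percentiles of 72.8, 86.0 and 53.7, Rac1 had 87.6, 75.7 and 41.7, and Rac2, the form of blood cells, had 53.4, 70.1 and 32.9. Syk, the kinase of Fc receptor signaling, was lower, with 25.0, 31.0 and 17.7. Elmo1, a part of the exchange factor for Rac, had a weak region 943 bp from its TSS with 17.6, 16.6 and 8.50. Its partner Dock2 had the gene-level pattern without a member region.

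Innate sensing and inflammation lacked it in 4 of 12 (33.3%, 9.92 to 65.1). Tirap, the adaptor of Toll-like receptors 2 and 4, was the strongest, with percentiles of 90.7, 87.2 and 63.9. Tlr4, the receptor of lipopolysaccharide, had 83.8, 71.4 and 52.2. Traf6, the ubiquitin ligase downstream of it, had 81.2, 49.9 and 40.7, and Chuk, the gene of the kinase IKK alpha, had 68.7, 54.6 and 31.1.

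Macrophage transcription factors lacked it in 4 of 35 (11.4%). Etv6, an ETS family repressor, had percentiles of 63.0, 34.7 and 50.2. Irf8, which directs the monocyte lineage, had 38.3, 25.6 and 24.3, and its relative Irf4 had 12.1, 41.5 and 37.7. Stat6, the factor of interleukin-4 signaling, had the pattern at gene level only. Macrophage markers lacked it in 2 of 3, which were Cd68 and Tyrobp, the gene of the signaling adaptor DAP12. The region of Tyrobp had percentiles of 84.8, 60.1 and 47.0. It was 811 bp from the TSS of Tyrobp, and the nearest annotated TSS was 748 bp away.

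Chromatin and cohesin genes lacked it in 2 of 20 (10%). The histone deacetylase Hdac2 had percentiles of 81.6, 80.6 and 64.5, and its nearest peak in esculetin replicate 1 was 2394371 bp away. Smarcd1, a subunit of the SWI/SNF remodeler, had 15.2, 68.1 and 43.4.

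Among genes of housekeeping complexes, 8 of 68 cytosolic ribosomal protein genes (11.8%), 14 of 47 mitochondrial ribosomal protein genes (29.8%, 17.3 to 44.9), 5 of 28 proteasome genes (17.9%) and 16 of 67 respiratory chain genes (23.9%) lacked the peak. The median percentile of their member regions in esculetin replicate 2 was 39.4 for the cytosolic ribosome, 53.4 for the mitochondrial ribosome, 55.9 for the proteasome and 54.4 for the respiratory chain, against 43.4 over all promoter members. Of the cytosolic set, Rpl36 had percentiles of 77.1, 58.6 and 53.4 and Rps27a had 34.1, 73.4 and 39.4, and 4 further genes, Rpl36a, Rpl29, Rpl4 and Rpl35a, had a lowest percentile over the 3 lists between 9.12 and 25.9. In the mitochondrial set Mrps27 was the strongest, with 88.1, 84.1 and 80.2. Mrpl46 and Mrps11, lower in rank than several members not named here, shared 1 region that covered both starts, at chr7:78782721-78783420. The proteasome lid subunits Psmd7 and Psmd11 had percentiles of 71.2 and 75.9 in esculetin replicate 2. In the respiratory chain list, Ndufb2 of complex I had 84.8, 69.4 and 70.8, and the complex I assembly factor Ndufaf2 had 95, 95.4 and 68.4. Cox7a2 and Cox7c, subunits of cytochrome c oxidase, had 97.7, 78.7 and 63.9, and 92.8, 83.3 and 61.3.

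Of the gene families taken by symbol, zinc finger proteins named Zfp lacked the peak in 55 of 166 (33.1%, 26 to 40.8). After Zfp691 and Zfp950, the strongest were Zfp873 with percentiles of 87.6, 85.6 and 78.4, Zfp942 and Zfp943, which shared a region at 80.7, 74.1 and 74.9, and Zfp128 with 72.6, 78.0 and 82.0. Many of these genes encode KRAB zinc finger repressors and lie in clusters of related copies. Reads that mapped to several places had been removed, and the part of this in the calls was not tested. Solute carriers lacked it in 22 of 106 (20.8%), of which the mitochondrial carriers Slc25a4, which exchanges ADP and ATP, and Slc25a37, which imports iron, had percentiles of 80.7, 67.7 and 55.4, and 71.5, 78.0 and 52.2. Rab GTPases and a Rab effector lacked it in 4 of 42 (9.52%), with Rab29 at 76.8, 46.3 and 65.7 and Rab24 at 48.6, 48.0 and 59.0. The other 2 were Rab31 and the effector Rab11fip2. Olfactory receptors, a family used mainly by olfactory neurons, had no gene with the pattern, and 935 of 945 had no promoter peak in any library.

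**Figure D5:**
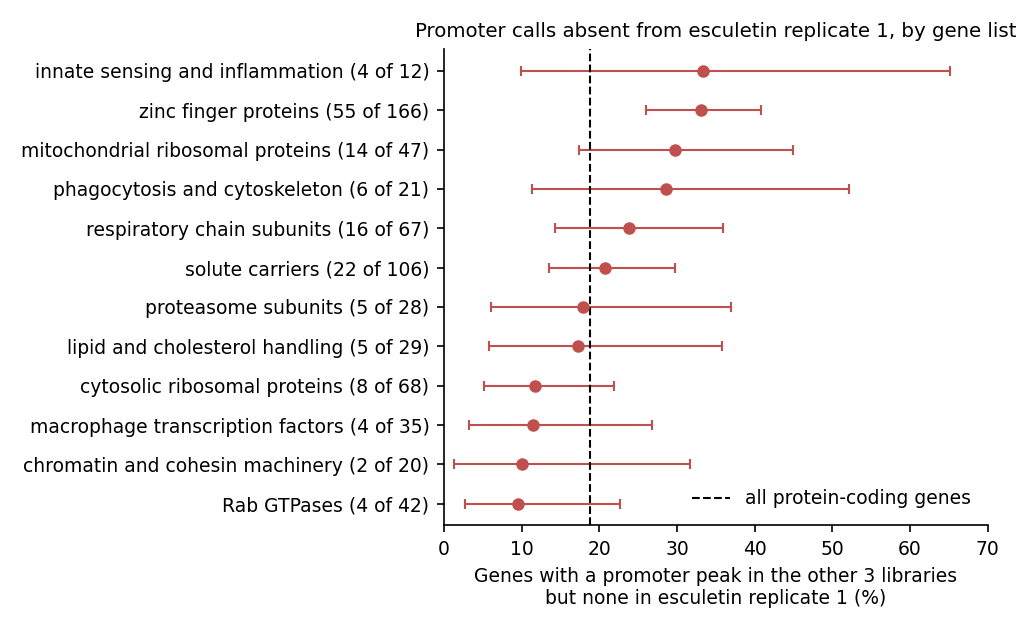
Share (%) of genes with a promoter peak in both DMSO libraries and esculetin replicate 2 that had none in esculetin replicate 1, for 12 gene lists with 10 or more such genes, with 95% Clopper-Pearson intervals and counts beside the names. The dashed line is the share over all protein-coding genes (18.8%). The intervals cover counting error only, and genes of a list can share a region. Whether a list differs from the line at matched promoter strength was not tested.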

How the data were processed

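Peak lists of 4 ATAC-seq libraries were used. The submitters' processing notes name Trim Galore for trimming, Bowtie2 for alignment to mm10 and MACS2 for peak calling, which the authors did in each library. The study's methods add that Sambamba took out duplicate reads and reads that mapped to several places. Peak caller options and any shift of read ends for Tn5 are not given in the sources used here. The deposited fold is a linear ratio of the summit over its background. The authors' lists also give −log10 p and −log10 q of the summit. The deposited score is derived from −log10 q. These values depend on depth, so they were ranked within a list and, as the lists hold no read counts, no count model was run.

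Peaks on chromosomes 1 to 19 and X were merged (overlap of 1 bp or more). The strongest peak of a library stood for the region. Summit coverage and background were solved from the fold and −log10 p (solved for over 99.9% of peaks in each list, checked on simulated data), and the lowest common background of a list is its depth measure (4.08 to 6.51). TSSs came from RefSeq, GRCm38.p6: the promoter table gave 26794 of 49554 genes, the 5′ gene end 18138 and 4622 had none. Strand was taken from GENCODE vM39 for gene ends, which gave the same strand for 99.4% of 21891 genes with both. A promoter was a TSS within 1 kb of the region centre. Genes were named by rule: the 12 members with the highest minimum percentile over the 3 lists, up to 6 members of each gene list by the same measure, and the 3 regions nearest to the limit on each side. Mrpl46 and Mrps11 were named outside this rule, for the region they share. Shares have Clopper-Pearson and differences Newcombe 95% intervals, which cover counting error only. No test across libraries was run on what the rule used. The members and the gene lists were chosen with earlier results of these data known. Alternatives were leaving out a library, lists of equal length (8559 peaks), −log10 q of at least 3, a 50% reciprocal overlap, absence widened to 500 bp, other TSS windows and sets, the summit in place of the centre, and fold in place of −log10 p. The software was Python 3.11.15 with SciPy 1.17.1, pandas 2.3.3, matplotlib 3.10.9 and NumPy 2.4.6. Sequence away from promoters was not used here. The values of 1 gene of the lists are not reported here.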

Additional observations from a re-analysis of the deposited data

How the results depend on the processing

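Leaving out a library gave 2621 to 8379 regions (the highest without esculetin replicate 1, where all regions of the other 3 count, and 7220 without esculetin replicate 2), a lacking share of 28.9% to 52.3%, a promoter share of 37.0% to 58.4%, a difference from regions called in all 4 libraries of −43.8 to −23.8 points, 1457 to 2099 genes and a median percentile of 36.3 to 37.1. Without esculetin replicate 2, the library whose absence moved the following 4 values most, the lacking share was 52.3%, the promoter share 37.0%, the difference −43.8 points and the genes 2099. With lists of equal length there were 375 regions, a lacking share of 10.3%, a promoter share of 74.7%, a difference of −11.4 points and 282 genes. With a 50% reciprocal overlap the lacking share was 31.8%, the promoter share 64.7%, the difference −17.4 points and the median percentile 46.7. The promoter share was 56.9% with a TSS within 500 bp, 63.4% with 2 kb and 55.9% with protein-coding genes only. At percentiles 30 to 70 of esculetin replicate 2, chosen after seeing the data, it was 64.9% and the difference −15.8 points. The median percentile was 35.9 with −log10 q of at least 3 and 41.5 when ranked by fold. Fewer peaks entered with equal lengths and fewer conditions with a library left out, and for the rest the cause was not tested. Of 58 alternatives in all, 31 left the value within its counting interval or, for counts, within 1.5 times, and the difference kept its sign in all 13 of its own. Leaving out regions in pseudogenes, also added after seeing the data, was among the 31. No paired analysis was possible because the results come from no test across libraries. The lists limit what can be said: they hold no coverage below the peak limit, so a missing peak is a call and not a measured low level, and with 2 libraries per group the pattern cannot be told apart from a difference between libraries.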
